A study of Mus musculus with 11 samples.

Results

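The 10 genes described here are the *Nkx2* and *Nkx6* homeobox genes *Nkx2-1*, *Nkx2-2*, *Nkx2-3*, *Nkx2-4*, *Nkx2-5*, *Nkx2-6*, *Nkx2-9*, *Nkx6-1*, *Nkx6-2* and *Nkx6-3*. They were chosen by name out of 21728 protein-coding genes, and for each the H3K27me3 peaks over the gene body and 10 kb either side, its window, were compared between brain regions. The trimethylation of lysine 27 on histone H3 (H3K27me3) had been profiled by CUT&Tag. In this method an antibody tethers a transposase to chromatin with the mark inside nuclei, so that the DNA beside the mark is cut out and sequenced. Nuclei came from wild-type C57BL/6J mouse embryos, from the cortex (CTX) and the 3 ganglionic eminences of the ventral forebrain, medial (MGE), caudal (CGE) and lateral (LGE), with 11 samples in all, 2 for MGE and 3 for each other region. The study's methods place these libraries at embryonic day 12.5, whereas the labels name days 12.5 and 14.5 without saying which sample had which age, and the tissue was pooled from several embryos of both sexes. The samples of a region were merged before peaks were called, so each region was a single list of broad peaks, no spread between replicates could be computed, and all differences between lists given here are descriptions without a test. Each dissected region holds progenitors and neurons together, so a weaker mark and fewer cells with the mark cannot be told apart. The labels' protocol also speaks of mixing nuclei from the regions, although each sample is named for a single region. The lists hold no expression values, so the region labels could not be checked against RNA of marker genes.

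H3K27me3 is laid down by the Polycomb repressive complex 2 and lies in broad domains over CpG-rich promoters of developmental regulators in cells where these genes are silent. NK2 and NK6 factors are homeodomain transcription factors that, downstream of Sonic hedgehog, pattern the ventral neural tube, and other members act in heart, gut and pancreas. *Nkx2-1* acts in the ventral forebrain: it specifies the MGE and the interneurons born there, and it is not expressed in the cortical primordium.

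Every gene of the family carried peaks in every region. The 4 lists held 15384 peaks (MGE), 19196 (CGE), 16851 (LGE) and 18785 (CTX), covering between 24.5 and 32.9 Mb of the genome. The MGE list was the shortest and also came from the fewest deposited samples and, by the study's methods, the fewest reads. By the study's account the regions had equal numbers of biological replicates, so samples that share a replicate number may be repeated libraries of 1 replicate. Any covered base in all 4 lists was found in the windows of 10 of 10 members and of 36.1% of all protein-coding genes. The members' windows were covered on average over 33.1% (MGE), 38.7% (CGE), 32.8% (LGE) and 34.1% (CTX), whereas the averages over all protein-coding genes were 2.67%, 3.36%, 2.86% and 3.03%. A cover of at least 50% in all 4 lists was reached by 0 members and by 0.226% of all genes, and the median cover of the members lay between 31.5% and 36.6%. Windows reach 10 kb beyond each gene, so the peaks, with a median width of 2481 to 3851 bases per list, filled only part of them.

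**Figure D1:**
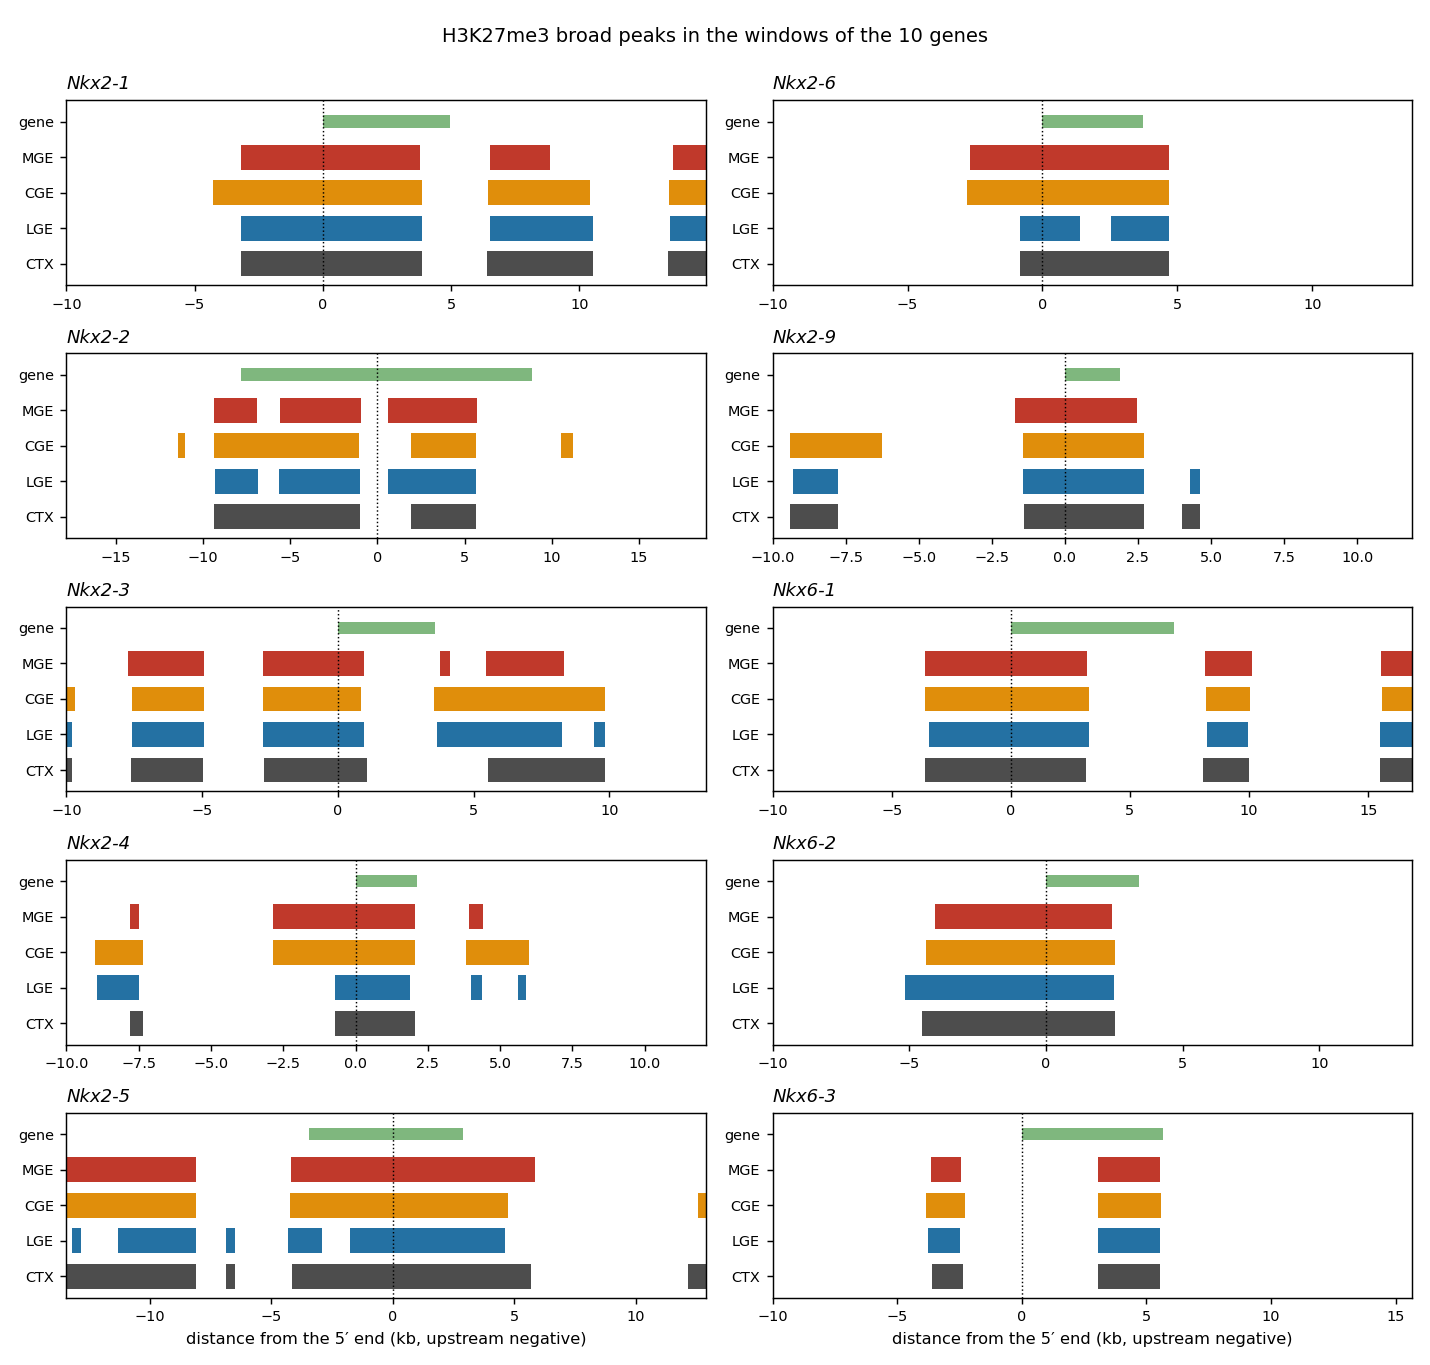
Broad H3K27me3 peaks in the 10 windows, by distance in kb from the 5′ end of each gene (dotted line, upstream negative), with the gene body in green and 1 row of bars for each of the MGE, CGE, LGE and CTX lists; bars stop at the window's edge. The 5′ end of the transcript with the longest coding sequence lay under a peak in all 4 lists for 8 of the 10 genes. It lay under none for *Nkx2-2* and *Nkx6-3*.

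The 5′ end of the gene itself, taken as the start of the protein-coding transcript with the longest coding sequence, lay under a peak in all 4 lists for 8 of 10 members and for 14.8% of all protein-coding genes. The 8 genes were *Nkx2-1*, *Nkx2-3*, *Nkx2-4*, *Nkx2-5*, *Nkx2-6*, *Nkx2-9*, *Nkx6-1* and *Nkx6-2*. Their peaks were wide, from 2228 bases over *Nkx2-6* in LGE to 10024 bases over *Nkx2-5* in MGE. At *Nkx2-2* and *Nkx6-3* the 5′ end so taken was under no peak in any list, with peaks to both sides of it. The outer 5′ boundary of the annotated *Nkx2-2* gene, base 147194243, did lie under a peak in all 4 lists. The result for *Nkx2-2* thus depends on the transcript taken. The map of peaks by distance from the 5′ end shows both arrangements.

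*Nkx2-1* (chr12:56531958-56536908, minus strand, GRCm38) was covered over 42.7% of its window (MGE), 54.3% (CGE), 50.3% (LGE) and 50.8% (CTX). MGE was thus the lowest list, but the gene that specifies the MGE was not free of H3K27me3 peaks there. The peak over its 5′ end was 7006 bases wide (MGE), 8129 (CGE), 7083 (LGE) and 7059 (CTX). Its upstream edge stood at the same base, -3210 relative to the 5′ end, in MGE, LGE and CTX, and at -4278 in CGE. Its downstream edges lay within 77 bases of each other in all 4 lists, from 3795 in MGE to 3872 in LGE. By position the 4 lists were therefore nearly alike at this promoter, and the 2 kb either side of the 5′ end were covered over 100% in each.

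What set MGE apart at *Nkx2-1* was the strength of the peaks. Strength is given here as the −log10 of the q-value that the peak caller attached to a peak, which for a broad peak is an average over its width and which grows with the number of reads. The peak over the 5′ end had a −log10 q of 3.86 (MGE), 31.7 (CGE), 33.7 (LGE) and 33.3 (CTX). Ranked by q-value within its own list, it was stronger than 54.4% of peaks (MGE), 84.3% (CGE), 87.7% (LGE) and 88.6% (CTX). By q-value the same peak was thus of middling strength in MGE and among the stronger ones elsewhere. The 2 further peaks downstream of the gene behaved likewise, with a −log10 q of 5.39 and 5.97 in MGE against 31.0 to 52.0 in the other 3 lists. The fold enrichment over background, a ratio, was not lower in MGE: over the 5′ end it was 1.79 there and 1.61, 1.67 and 1.60 in CGE, LGE and CTX. Ranked by fold, the peak was above only 3.11% of peaks (MGE), 1.96% (CGE), 2.05% (LGE) and 1.83% (CTX), so it was low in every list. The q-value and the fold thus differed from the other lists in opposite directions, and whether the fewer libraries and reads of MGE had a part in the q-value was not tested.

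Averaged over the covered bases of the whole window, the −log10 q of *Nkx2-1* was 4.45 (MGE), 34.1 (CGE), 34.8 (LGE) and 35.9 (CTX). MGE reached 0.130 times the lowest of the other lists, and this ratio was the lowest among the 7850 protein-coding genes with a covered base in all 4 lists (rank 1). Its rank was 1 to 3 under the other settings tried. With peaks of a q-value under 0.00001 alone, *Nkx2-1* was covered over 14.7% (MGE), 54.3% (CGE), 50.3% (LGE) and 50.8% (CTX). The measure and this limit were chosen after the values had been seen, and they describe these 4 lists only. Over those genes the median ratio was 0.770, with quartiles of 0.600 and 1.11, and MGE was the weakest of the 4 lists at 69.1% of them, so lower strength in MGE was common and its extent at *Nkx2-1* was not. A ratio of at most 0.25 was met by 1 of 10 members and by 0.229% of the 7850 genes, 18 in number. The same limit was met by 0 genes in CGE, 1 in LGE and 53 in CTX, none of them a member. Next after *Nkx2-1* in MGE came *Rbm18* at 0.183 and the neighbouring *Fastkd5* and *Lzts3*, which share peaks, at 0.201, genes named after their values were seen, with windows covered over 8.89% or less in MGE.

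**Figure D2:**
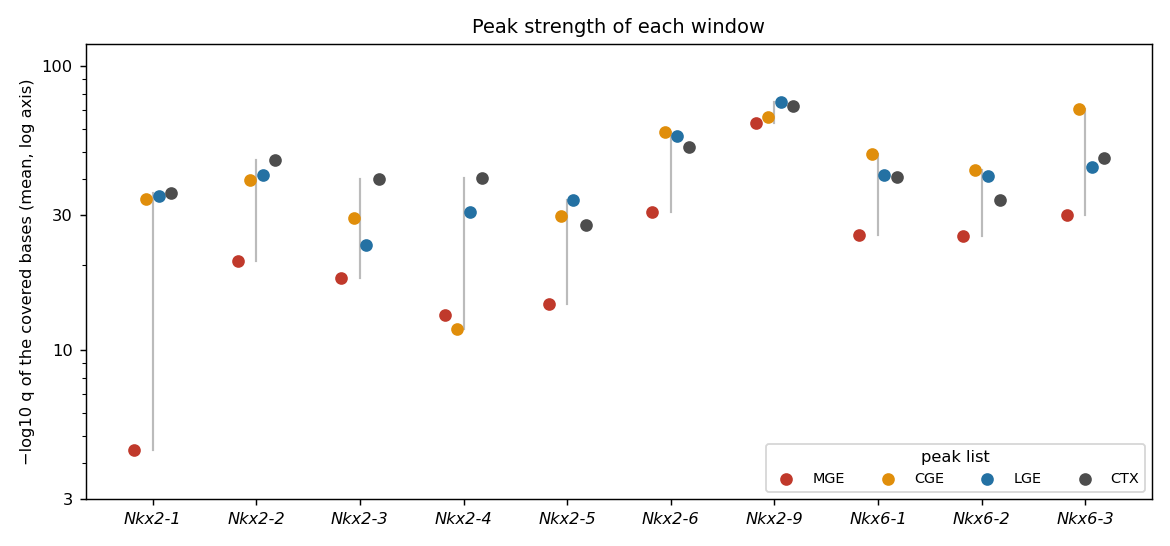
Mean −log10 q of the covered bases of each window (log axis) in the MGE, CGE, LGE and CTX lists, 1 point a list, with grey lines from the lowest to the highest. *Nkx2-1* stands at 4.45 in MGE and between 34.1 and 35.9 in the other lists, whereas the other genes in MGE lie between 13.3 and 63.5.

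The other 9 members did not share this gap. Their ratio of MGE to the lowest other list ran from 0.518 at *Nkx2-2* to 1.11 at *Nkx2-4*. Even so, MGE was the weakest list at 9 of the 10 genes, *Nkx2-1* included. The window mean is taken over whichever peaks each list holds, so weak extra peaks in a list lower its value. The ratio of 0.958 at *Nkx2-9* is such a case, as CGE, LGE and CTX held weak distal peaks there that MGE lacked. At *Nkx2-9*, the nearest family member on the same chromosome, the peak over the 5′ end had a −log10 q of 63.5 (MGE), 111 (CGE), 107 (LGE) and 108 (CTX). It was stronger than 99.2%, 98.1%, 99.0% and 99.3% of peaks in those lists, so its rank was alike in all 4. The plot of window strength shows *Nkx2-1* in MGE alone below 10.

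The sequence before the *Nkx2-1* 5′ end is shown because it lay under the peak in all 4 lists, and a stretch downstream of the gene is shown because it was covered in CGE, LGE and CTX and not in MGE. That stretch ran over 1551 bases from 8874 to 10424 downstream of the 5′ end (chr12:56526484-56528034), outside any protein-coding gene, and its middle 300 bases are printed. Both are written 5′ to 3′ on the minus strand of GRCm38 with CpG dinucleotides in capitals. The first holds 9 CpG in 250 bases and the second 3 in 300.
*Nkx2-1* before the 5′ end, RefSeq, chr12:56536909-56537158: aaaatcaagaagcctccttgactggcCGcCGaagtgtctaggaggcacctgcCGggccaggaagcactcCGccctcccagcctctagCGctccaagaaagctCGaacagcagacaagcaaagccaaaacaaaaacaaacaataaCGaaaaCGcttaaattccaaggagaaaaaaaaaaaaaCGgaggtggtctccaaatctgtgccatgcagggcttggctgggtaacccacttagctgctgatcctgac
*Nkx2-1* downstream stretch, chr12:56527110-56527409: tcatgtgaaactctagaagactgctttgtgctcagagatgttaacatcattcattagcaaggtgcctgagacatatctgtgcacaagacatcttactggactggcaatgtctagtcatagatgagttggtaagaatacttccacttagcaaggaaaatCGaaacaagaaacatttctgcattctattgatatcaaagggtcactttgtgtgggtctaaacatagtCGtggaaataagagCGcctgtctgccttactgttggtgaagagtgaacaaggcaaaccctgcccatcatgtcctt
In CGE a further 1068 bases, from -4278 to -3211, were covered that were under no peak in the other lists. Of all bases covered in any list in the *Nkx2-1* window, 77.5% were covered in all 4, and 0% of the MGE bases lay outside the other lists. Every base covered in MGE was thus also covered in at least 1 other list.

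*Nkx2-9* (chr12:56611389-56613284, minus strand), which is expressed in the ventral neural tube, lies 74480 bases upstream of *Nkx2-1* on chromosome 12. Its window was covered over 19.04% (MGE), 33.2% (CGE), 27.4% (LGE) and 29.0% (CTX). The peak over its 5′ end hardly differed, with widths of 4170, 4115, 4133 and 4084 bases. The lower cover in MGE came mostly from a distal block: the 1545 bases from -9313 to -7769 (chr12:56621053-56622597) were covered in CGE, LGE and CTX and not in MGE. That block was weak where it was called, with a −log10 q of 7.70 in CGE, 5.40 in LGE and 7.53 in CTX. Between the 2 genes, the intervening sequence was covered over 5.09% (MGE), 8.63% (CGE), 7.83% (LGE) and 9.60% (CTX). Both ends of this interval therefore had their lowest cover in MGE, and the *Nkx2-1* end alone had the low strength.

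*Nkx2-4* (chr2:147083316-147085445, minus strand), the nearest relative of *Nkx2-1* and a gene of the hypothalamus, differed most in cover. Peaks lay over 25.8% (MGE), 39.7% (CGE), 21.2% (LGE) and 14.5% (CTX) of its window. The span of 25.2 percentage points made it the 1 member with a span of at least 20 points, against 0.244% of all genes, and with only peaks of a q-value under 0.001 it fell below that mark. The peak over the 5′ end was 4917 bases wide in both MGE and CGE, 2568 in LGE and 2764 in CTX. The difference lay upstream, where the 2151 bases from -2862 to -712 were covered in MGE and CGE and in neither LGE nor CTX. The narrower peaks were the stronger ones, with a −log10 q of 52.3 in LGE and 46.3 in CTX against 15.2 in MGE and 17.6 in CGE, and with a fold of 2.89 and 2.83 against 2.29 and 1.96. MGE and CGE thus had a wide and weaker peak, LGE and CTX a narrow and stronger one. Only 32.5% of the bases covered in any list were covered in all 4, the lowest share among the members.

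*Nkx2-2* (chr2:147177546-147194243, minus strand), which specifies ventral progenitors of the spinal cord and acts in oligodendrocytes and pancreatic islets, lies 92100 bases from *Nkx2-4*. Peaks covered 33.4% (MGE), 35.7% (CGE), 33.1% (LGE) and 32.9% (CTX) of its window. These totals hid different layouts. The 5′ end of its coding transcript stood in a break, a stretch without a peak between neighbouring peaks of a list, which was 1546 bases long (MGE), 2968 (CGE), 1624 (LGE) and 2925 (CTX). MGE and LGE were alike, and so were CGE and CTX. The bases from 616 to 1927 (1312 bases) were covered in MGE and LGE only, and those from -6847 to -5676 (1172 bases) in CGE and CTX only. For the whole window the shared share of covered bases (the Jaccard index) was 97.6% between MGE and LGE and 91.1% between CGE and CTX, and 73.4% to 81.0% for the other 4 pairs.

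The bases before the *Nkx2-2* 5′ end are shown because they lay in the break in all 4 lists, and the middle of the stretch from 616 to 1927 because it was covered in MGE and LGE only. Both lie in introns of the gene as GENCODE annotates it, with exon bases next to the 5′ end left out, and are written 5′ to 3′ on the minus strand, with CpG dinucleotides in capitals.
*Nkx2-2* before the 5′ end, RefSeq, chr2:147186456-147186652: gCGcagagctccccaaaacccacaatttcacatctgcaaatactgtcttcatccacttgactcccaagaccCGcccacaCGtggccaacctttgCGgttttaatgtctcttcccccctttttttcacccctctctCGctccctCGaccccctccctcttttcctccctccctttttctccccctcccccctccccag
*Nkx2-2* intronic stretch, chr2:147184983-147185282: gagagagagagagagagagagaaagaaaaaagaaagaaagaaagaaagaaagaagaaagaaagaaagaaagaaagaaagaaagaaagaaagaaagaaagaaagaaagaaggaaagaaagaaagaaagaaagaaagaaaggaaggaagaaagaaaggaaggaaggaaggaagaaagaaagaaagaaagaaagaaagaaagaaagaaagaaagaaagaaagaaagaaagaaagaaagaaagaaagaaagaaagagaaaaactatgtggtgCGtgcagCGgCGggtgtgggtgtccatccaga
The second is largely a tandem repeat, with 50 copies of gaaa in its 300 bases. How reads in such a repeat were placed was not tested. The first holds 6 CpG in 197 bases.

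*Nkx6-1* (chr5:101658139-101664996, minus strand), needed for motor neuron progenitors and pancreatic beta cells, was the most uniform gene of the family. The lists covered 37.7% (MGE), 37.4% (CGE), 36.5% (LGE) and 37.5% (CTX) of the window. The peak over the 5′ end was 6838, 6895, 6732 and 6763 bases wide in these lists, with upstream edges within 164 bases and downstream edges within 101 bases of each other. Of the bases covered in any list, 93.7% were covered in all 4. The −log10 q of this peak was 20.7 (MGE), 39.2 (CGE), 34.3 (LGE) and 36.4 (CTX), and its fold was 1.88, 1.82, 1.90 and 1.84. At nearly the same fold as *Nkx2-1* in MGE, this peak was stronger than 87.4% of the MGE list. In every list 2 breaks lay at the same places downstream of the 5′ end, of 4894 to 4958 bases and of 5446 to 5546 bases.

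*Nkx6-2* (chr7:139579376-139582797, minus strand), a partner of *Nkx6-1* in the ventral neural tube and a gene of oligodendrocytes, had a single peak in each list. The peak was 6478 bases wide (MGE), 6930 (CGE), 7640 (LGE) and 7072 (CTX), and the window was covered over 27.7%, 29.6%, 32.6% and 30.2%. The downstream edges lay within 88 bases of each other and the upstream edges within 1098 bases, from -4046 in MGE to -5144 in LGE. The gene was therefore marked over the same place in all regions, with a variable upstream end.

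*Nkx2-5* (chr17:26838664-26845009, minus strand), the cardiac member, had the highest cover of the family in MGE, CGE and CTX. Its window was covered over 58.3% (MGE), 55.5% (CGE), 44.3% (LGE) and 61.7% (CTX). It was the 1 member with LGE lowest by at least 10 percentage points, against 0.0414% of all genes. In LGE the peak over the 5′ end was 6356 bases wide, against 10024 in MGE, 8970 in CGE and 9842 in CTX, and a break of 1167 bases from -2922 to -1756 parted it from the next peak. In the whole window LGE had 5 peaks, where MGE had 2, CGE 3 and CTX 4. The CGE and CTX counts include a weak peak far downstream, from 12574 (CGE) and 12156 (CTX) bases past the 5′ end. Its −log10 q was 1.14 in CGE and 1.32 in CTX.

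*Nkx2-6* (chr14:69171802-69175518, plus strand), a gene of pharyngeal endoderm and the embryonic heart, was also split in LGE. Its window was covered over 31.0% (MGE), 31.5% (CGE), 18.4% (LGE) and 23.3% (CTX). A single peak of 7344, 7471 and 5524 bases lay over the gene in MGE, CGE and CTX, and 2 peaks of 2228 and 2139 bases in LGE. The LGE break covered 1155 intronic bases from 1386 to 2540 (chr14:69173188-69174342). Upstream, the 1826 bases from -2668 to -843 were covered in MGE and CGE only, so at *Nkx2-6*, as at *Nkx2-4*, MGE and CGE shared an upstream extension that LGE and CTX lacked. The upstream edge of the peak in LGE and CTX was at the same base, -842. The middle of the LGE break is shown because LGE alone lacked a peak there, and it holds 5 CpG (capitals) in 300 bases on the plus strand.
*Nkx2-6* intron, chr14:69173616-69173915: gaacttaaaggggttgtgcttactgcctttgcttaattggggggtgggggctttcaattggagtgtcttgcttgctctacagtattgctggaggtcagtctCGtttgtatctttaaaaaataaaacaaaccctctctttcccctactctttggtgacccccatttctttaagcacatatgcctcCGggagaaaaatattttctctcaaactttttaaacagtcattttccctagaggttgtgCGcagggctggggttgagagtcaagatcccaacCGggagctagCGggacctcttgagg

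*Nkx2-3* (chr19:43612325-43615892, plus strand), which acts in gut mesenchyme and spleen, was covered over 41.3% of its window (MGE), 54.6% (CGE), 49.2% (LGE) and 46.7% (CTX). The peak over the 5′ end was alike, with widths of 3710, 3591, 3721 and 3827 bases and upstream edges within 16 bases of each other. Downstream of the gene the lists parted: CGE had a single peak of 6317 bases, CTX 1 of 4310 bases, and LGE 1 of 4593 and 1 of 410 bases, whereas MGE had a small peak of 372 bases and another of 2843 bases. The lower cover in MGE came from this downstream side, which was covered over 32.2% (MGE), 62.8% (CGE), 50.03% (LGE) and 43.1% (CTX).

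*Nkx6-3* (chr8:23153269-23158948, plus strand), a gene of the stomach epithelium, was the least covered member in MGE, CGE and LGE. Its window was covered over 14.4% (MGE), 15.9% (CGE), 14.7% (LGE) and 14.6% (CTX). Its 5′ end stood in a break of 5497 bases (MGE), 5341 (CGE), 5523 (LGE) and 5404 (CTX), and the 2 kb either side were covered over 0% in each list. The peak inside the gene, downstream of the 5′ end, was nonetheless strong, with a −log10 q of 41.3, 107, 64.0 and 67.7 and a fold of 3.87, 3.73, 3.95 and 3.79. These folds were the highest of the family in each list. A weaker peak, with a −log10 q of 6.20 to 11.4, lay upstream of the break, so the marked places of *Nkx6-3* flanked its 5′ end.

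**Figure D3:**
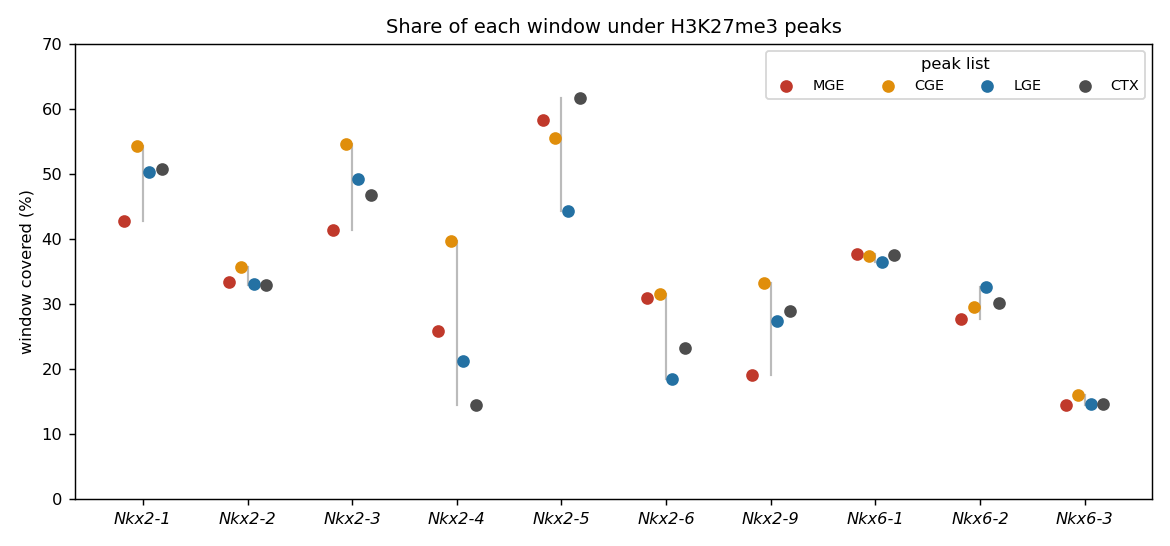
Share of each window (gene body and 10 kb either side, in percent) under peaks in the MGE, CGE, LGE and CTX lists, 1 point a list, with grey lines from the lowest to the highest. *Nkx2-4* spans 25.2 percentage points, and *Nkx6-1*, *Nkx6-3* and *Nkx2-2* span under 3.

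Across the family, differences in cover between regions varied from gene to gene. The span over the 4 lists ran from 1.14 percentage points at *Nkx6-1* to 25.2 at *Nkx2-4*, with a median of 12.3, and 4 of 10 members (*Nkx2-2*, *Nkx6-1*, *Nkx6-2* and *Nkx6-3*) spanned under 5 points. Because the members hold far more covered bases than most genes, the median span of 0.440 points over all protein-coding genes is no like-for-like comparison. In the 2 lists of related genes described below, the median span was 9.03 points (ventral patterning) and 5.72 points (further NK-class genes), lower than in the members. CGE was the highest list at 7 of the 10 genes, and at 48.2% of the 7850 protein-coding genes with a covered base in every list, and had the most covered bases genome-wide. MGE was the lowest at 5, LGE at 3 and CTX at 2, against 44.8%, 25.8% and 22.6% of those 7850 genes. The plot of covered percent shows these orders gene by gene.

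Calls of a list standing apart by at least 10 percentage points came at *Nkx2-4* and *Nkx2-5* only. The same calls were rarer among all genes, most of which had far less cover. MGE stood lowest at 0 members and 0.0506% of all genes, and highest at 0 members and 0.046%. CGE stood lowest at 0 members and 0% of genes, and highest at 1 member, *Nkx2-4*, and 0.184%. LGE was lowest at 1 member, *Nkx2-5* as given above, and highest at 0 members and 0.0138% of genes. CTX stood lowest at 0 members and 0.138%, and highest at 0 members and 0.124%. For 10 genes, counts of 0 or 1 give no statement beyond the genes named. The mean cover of the members in MGE minus the mean of the other 3 lists was -2.07 percentage points, against -0.416 over all protein-coding genes. Mean cover in MGE was 33.1% for the members and 2.67% for all genes, so these points are no like-for-like comparison either. Within 2 kb of the 5′ end the members' difference was 7.99 points, in the other direction. This mean came mostly from *Nkx2-2* (24.0), *Nkx2-4* (22.7) and *Nkx2-6* (24.4). The difference was 0 at *Nkx2-1*, *Nkx6-1*, *Nkx6-2* and *Nkx6-3*, and -0.183 at *Nkx2-3*. With peaks under 3 kb apart joined, MGE stood lowest by 10 points at 2 members, *Nkx2-1* and *Nkx2-9*. The share of all genes with joined peaks is not given here, so this count has no background beside it.

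The members' windows held 66 breaks, namely 14 (MGE), 16 (CGE), 21 (LGE) and 15 (CTX). The medians of their lengths were 2767, 3497, 2176 and 2927 bases. LGE had the most peaks, 31 against 24 in MGE, 26 in CGE and 25 in CTX, and the smallest median peak width of 2481 bases. With peaks under 3 kb apart joined, LGE instead had the fewest breaks, with 5 against 6 in MGE, 9 in CGE and 7 in CTX. Of the 66 breaks, 8 held a 5′ end, all at *Nkx2-2* and *Nkx6-3*, and 38 touched no protein-coding gene. Stretches of at least 200 bases that only some lists covered numbered 32, of which 24 were covered in CGE, 17 in CTX, 14 in LGE and 11 in MGE. The stretches covered in a single list were 5 in CGE, 2 in CTX, 1 in LGE and 1 in MGE, the shortest of the lists.

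CpG content was read from the reference sequence, which the choice of genes did not use. The ratio of observed to expected CpG within 2 kb of the 5′ end was above the median of all protein-coding genes, 0.373, at 8 of 10 members, and above their upper quartile, 0.511, at 7. The highest ratios were 0.886 at *Nkx2-4*, 0.824 at *Nkx6-2* and 0.762 at *Nkx6-1*. The lowest were 0.243 at *Nkx6-3* and 0.335 at *Nkx2-6*. Bases covered in all 4 lists had a higher CpG ratio than bases covered in none at 9 of 10 members. The same comparison was not made over all genes. At *Nkx2-4* the ratios were 0.895 and 0.186, and at *Nkx6-3* they were 0.547 and 0.268. The exception was *Nkx2-3*, with 0.402 under peaks and 0.438 outside.

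**Figure D4:**
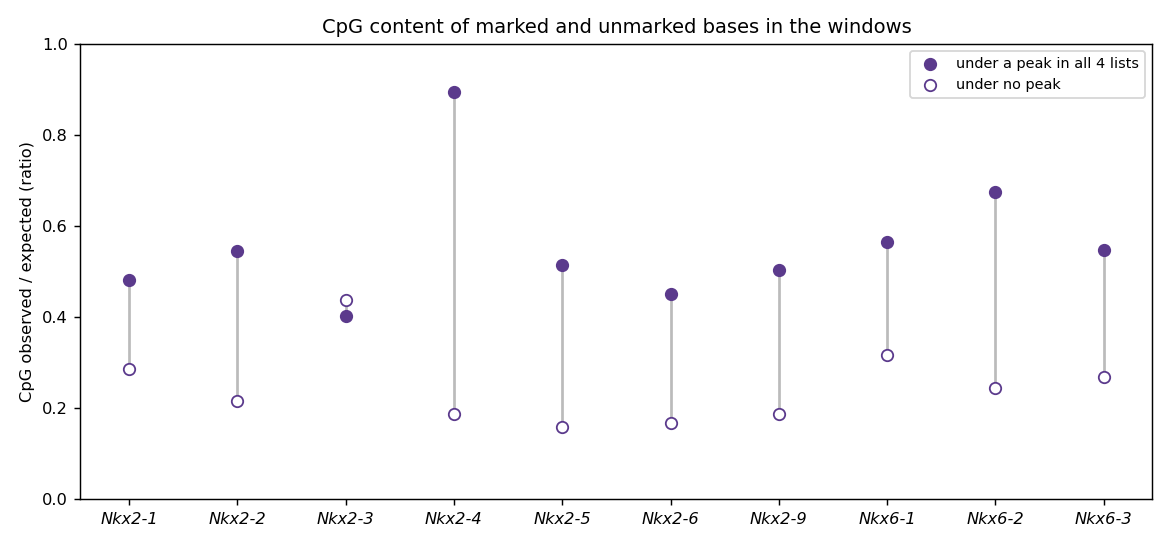
Observed over expected CpG (a ratio) of the bases under a peak in all 4 lists (filled) and under no peak (open) in each window. The filled point lies above the open one at 9 of the 10 genes and below it at *Nkx2-3*.

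Promoter sequences of 300 bases in RefSeq (GRCm38.p6) matched 8 of the 10 members, without *Nkx2-6* and *Nkx6-3*. They held between 9 and 40 CpG each, against a median of 7 over 32851 promoters. *Nkx6-1* had 40, *Nkx2-4* 38 and *Nkx6-2* 32. The 150 bases upstream of the *Nkx2-4* gene are shown, 5′ to 3′ on the minus strand, because this member had the highest CpG ratio and a narrow peak here in LGE and CTX; they hold 12 CpG in capitals.
*Nkx2-4* upstream, RefSeq, chr2:147085446-147085595: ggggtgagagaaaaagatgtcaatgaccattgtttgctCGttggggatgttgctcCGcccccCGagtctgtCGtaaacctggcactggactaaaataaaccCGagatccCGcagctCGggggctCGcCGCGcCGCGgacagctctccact
The letters CAAGTG, the core bound by NK2 homeodomains, were found on either strand in 1 of the 8 promoters, that of *Nkx2-2*, and in 13.6% of all promoters. TAATTA, a general homeodomain core, was in 0 of 8 and in 5.29% of all, and GACCACCCA, the core bound by GLI factors, was in 0 of 8 and in 0.253%. With a single match among the members no overlap between motifs arose, and a match describes letters only.

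In a list of 15 genes of ventral patterning, the genes around the NK factors in the hedgehog network, the span was at least 20 points at 2. *Pax6*, a factor of cortical progenitors, was covered over 49.5% of its window (MGE), 33.2% (CGE), 28.8% (LGE) and 24.4% (CTX), and *Olig2*, a factor of ventral progenitors, over 33.9%, 40.5%, 46.6% and 54.3%. The orders of these genes were opposite, with *Pax6* highest and *Olig2* lowest in MGE. *Gsx2*, a factor of LGE progenitors, was covered over 42.3%, 57.7%, 48.4% and 61.8%. In this list 13 of 15 had a covered base in all 4 lists, 1 (*Foxa2*) was covered over at least 50% in all, and 0 of the 13 had a strength ratio of at most 0.25 in MGE. Ratios over the 13 ran from 0.290 at *Ptch1* to 1.56 at *Pax6*. *Ptch1*, *Lhx6* (0.404), *Shh* (0.442), *Lhx8* (0.461) and *Foxa2* (0.483) lay below 0.518 at *Nkx2-2*, the next lowest member after *Nkx2-1*. The rest of the 13 lay above it. None was as low as *Nkx2-1* at 0.130, but weaker peaks in MGE were not confined to that gene.

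In a list of 17 further NK-class homeobox genes, 17 had a covered base in all 4 lists and 7 were covered over at least 50% in all, against 0 of the 10 members. Their largest spans were 19.6 points at *Tlx1*, 12.8 at *Bsx* and 10.6 at *Nkx3-2*, and 0 had a strength ratio of at most 0.25 in MGE. The genes with window cover nearest to that of *Nkx2-1*, by Euclidean distance over the 4 lists, were *Dbx1* at 3.82 points, *Foxe1* at 5.97, *Fbxl8* at 6.56, *Ccr10* at 7.45 and *Evx2* at 7.54. *Dbx1* was covered over 40.9%, 55.1%, 48.0% and 53.1% in MGE, CGE, LGE and CTX. Its strength ratio was 0.653, so the gene nearest in cover was not near in strength. Protein-coding neighbours lay in the windows of 3 members: *Xrn2* at *Nkx2-4*, *Inpp5a* at *Nkx6-2* and *Ank1* at *Nkx6-3*.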

How the data were processed

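H3K27me3 CUT&Tag was analysed for 11 samples, each assigned to the region that its label names. The authors aligned reads to GRCm38 (mm10) with Bowtie2, removed blacklisted reads and duplicates (Picard), merged the samples of each region with SAMtools and called broad peaks with MACS, whose version and control are not given in the sources used here. For each peak the deposited lists give the enrichment over local background, as a ratio, and the q-value as −log10 q, both as the authors' peak caller wrote them. They hold no read counts, so the depth behind a peak is unknown and no counting interval is given. In 3 regions some samples share a replicate number and may be repeated libraries of 1 biological replicate.

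Peaks on chromosomes 1 to 19 and X were intersected with windows of 21728 protein-coding genes of GENCODE M21, counting from 1, with Python 3.11.15, numpy 2.4.6 and matplotlib 3.10.9. Cover is the share of window bases under peaks. Coverage code was tested on simulated peaks. Alternatives were a q-value limit of 0.001, peaks under 3 kb apart joined, and lists cut to equal numbers of peaks or to equal covered bases. Other windows were 5 kb or 20 kb either side of the gene body, or 2 kb either side of the 5′ end. Further alternatives were 1 member per neighbourhood of 200 kb and, added after seeing the data, a q-value limit of 0.00001. The strength ratio was also added after seeing the data. Named were all members, protein-coding genes in their windows, the 3 genes of each list with the largest span and the 5 genes nearest to *Nkx2-1* in cover. *Rbm18*, *Fastkd5*, *Lzts3*, *Foxa2*, *Ptch1*, *Lhx6*, *Shh* and *Lhx8* were named after their values were seen. The members and lists were chosen with earlier results of these data known. No test was run.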

Additional observations from a re-analysis of the deposited data

How the results depend on the processing

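The ratio of *Nkx2-1* strength in MGE to the lowest other list lay between 0.122 and 0.164 under all alternatives, with a rank of 1 to 3 from the lowest. The number of members with a span of at least 20 points, 1 as reported, was 0 with a q-value under 0.001, with equal covered bases, with 20 kb either side and with 1 member per neighbourhood, 2 (*Nkx2-4* and *Nkx2-6*) with 5 kb either side, and 3 (with *Nkx2-2*) within 2 kb of the 5′ end. The number covered over at least 50% in all lists, 0 as reported, was 3 with peaks under 3 kb apart joined, 4 with 5 kb either side and 8 within 2 kb of the 5′ end. The number with MGE lowest by 10 points, 0 as reported, was 2 with peaks joined and 1 (*Nkx2-1*) with a q-value under 0.00001. For these counts of members the shares of all genes under the alternatives are not given. The mean difference of MGE from the other lists, -2.07 points as reported, was -3.92 with peaks joined, -0.0022 with 5 kb either side, -1.32 with 1 member per neighbourhood, -4.59 with a q-value under 0.00001 and 7.99 within 2 kb of the 5′ end, where *Nkx2-9* also turned from -10.8 to 6.96 points. Breaks numbered 66 as reported, 27 with peaks joined, 43 with 5 kb either side and 4 within 2 kb. The causes were not tested. Of 88 differences of single members under alternatives, 54 kept their sign and stayed within 1.5-fold. A further 33 moved more, 4 of them across 0, and 1 (*Nkx2-9*, above) also changed sign. Of the 4, *Nkx2-5* went from 4.52 to -8.11 points with peaks joined. Within 2 kb of the 5′ end *Nkx2-2* went from -0.493 to 24.0. *Nkx2-4* went from 0.663 to -0.363 with a q-value under 0.001 and to -0.567 with 20 kb either side. No paired analysis was possible because each region is a single merged list. For the same reason no sample could be left out.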
